A study of Mus musculus with 12 samples.

Results

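Glucose enters a cell through carriers of the SLC2 family, lactate and pyruvate move through carriers of the SLC16 family, and Txnip acts on glucose carriers at the membrane. The 7 genes described here are the glucose transporters Slc2a1, Slc2a3, Slc2a4 and Slc2a8, the monocarboxylate transporters Slc16a1 and Slc16a3, and Txnip, out of 24411 genes in the deposited tables. They were chosen by name as rows of these tables with their TPM (transcript abundance scaled to library size, a level per length) and expected counts in these libraries already known. Their levels and differences are therefore descriptions, and the adjusted p-values given with them support no claim about them. Poly(A) RNA was measured in 12 libraries of mouse blastocysts, each from a pool of 10 embryos, in 6 groups of 2.

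All embryos were wild-type ICR, from superovulated oocytes fertilised in vitro, grown in KSOM medium and collected at 96 h after insemination. The groups join 2 diets with 3 treatments. The labels write the diets as ND and HFD without spelling them out, and the series title speaks of normal weight and obese mice. The treatments were a control with no further description (C), an siRNA with no target (siNT), and 1 that targets Nampt (siNampt). Nampt encodes visfatin, an enzyme of NAD synthesis. The siRNAs entered by electroporation of one-cell embryos at 3 to 6 h, so siNT is the matched control of siNampt. ND C, ND siNT, ND siNampt, HFD C, HFD siNT and HFD siNampt each hold replicates 1 and 2, and the replicate number equals the batch number of the labels. Beyond the batch number, it is not known here whether the pools came from separate females or separate fertilisations. A p-value here therefore measures only the spread between these pools.

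Total expected counts ran from 42473129 to 50503064 per library. All 8 trophectoderm, 6 inner cell mass and 5 primitive endoderm markers had a median of at least 1 TPM, and 0 of 7 cumulus cell markers did. So did 1 of 5 sperm, 1 of 5 blood and 1 of 6 oocyte markers. The blood marker was Hba-a2, at 2.32 to 13.6 TPM. Nampt itself had 10.2 to 15.3 TPM with siNT and 8.83 to 12.4 with siNampt, ranges that overlap, with a log2 difference of -0.43 (SE 0.17, edgeR adjusted p = 0.396). The gap between transcript length and effective length, which follows fragment size, was 186 bases in HFD siNT replicate 1 and 211 to 231 in the others. The summed level of 4 Y-linked genes, which moves with the share of male embryos in a pool, ran from 34.8 to 184 TPM.

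In the mouse blastocyst the switch from pyruvate and lactate towards glucose is under way, and the trophectoderm takes glucose up across its outer face. GLUT3 (Slc2a3) is known on that outer face and GLUT1 (Slc2a1) on inner faces and in the inner cell mass, while GLUT8 (Slc2a8) is a mainly intracellular carrier described as insulin-responsive in blastocysts. GLUT4 (Slc2a4) is the insulin-responsive carrier of muscle and fat. MCT1 (Slc16a1) carries lactate and pyruvate in both directions, and MCT4 (Slc16a3) is the exporter of strongly glycolytic cells. Txnip is an alpha-arrestin that binds thioredoxin and promotes the removal of GLUT1 and GLUT4 from the cell surface. Its transcription is known to follow glucose through the Mondo factors with Mlx, which bind paired E-box-like hexamers called carbohydrate response elements.

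The promoter windows of Txnip and Slc16a1 are shown because Txnip is the member with the tightest values between replicates, and because both windows hold E-box-like letters. Both are RefSeq sequence of GRCm38.p6 on the plus strand, 250 bases up to the base before the start site, at chr3:96557707-96557956 for Txnip and chr3:104638414-104638663 for Slc16a1. Capitals mark the match to the motif searched.
Txnip: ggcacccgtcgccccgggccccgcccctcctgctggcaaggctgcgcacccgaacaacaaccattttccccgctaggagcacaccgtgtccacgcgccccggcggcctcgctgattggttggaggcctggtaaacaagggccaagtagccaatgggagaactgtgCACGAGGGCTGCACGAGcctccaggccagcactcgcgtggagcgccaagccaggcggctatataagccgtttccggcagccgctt
Slc16a1: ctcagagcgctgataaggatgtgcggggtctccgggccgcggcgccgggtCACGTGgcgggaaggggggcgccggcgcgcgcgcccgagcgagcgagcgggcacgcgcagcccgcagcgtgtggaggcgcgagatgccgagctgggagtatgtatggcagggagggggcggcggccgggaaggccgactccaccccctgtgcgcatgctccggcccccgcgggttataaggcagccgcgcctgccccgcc
The Txnip capitals are the 1 match to a pair of CACGNG hexamers with 5 bases of any kind between them, at -85 to -69 from the start site. Counting both strands, 15 of 32851 promoter windows in the RefSeq table (the 250 bases before each start) held it, which is 0.0457%. The Slc16a1 capitals are CACGTG at -200 to -195, a palindrome present in 6.02% of the windows. The core letters of a hypoxia response element, ACGTG, match there on both strands, inside the same letters, and occur in 16.6% of the windows. Motifs were chosen with the sequences in view, and a match describes letters, not a bound site. The RefSeq table held an entry for 5 of the 7 members, and letters outside the GENCODE gene could be searched for 4 of them, over 250 bases for Txnip, Slc16a1 and Slc2a8 and 216 for Slc2a1. For Slc16a3 they came to 0 bases. In the Slc2a8 window, CCAAT matched at 4 places on either strand, of which 2 share bases, and 33.8% of all windows hold it.

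In GENCODE annotation of GRCm38, all 7 members are protein-coding. Slc2a1 lies at chr4:119108711-119137983 (plus strand), Slc2a3 at chr6:122727809-122801640 (minus), Slc2a4 at chr11:69942539-69948188 (minus) and Slc2a8 at chr2:32972990-32982083 (minus). Slc16a1 lies at chr3:104638668-104658462 (plus), Slc16a3 at chr11:120948480-120960868 (plus) and Txnip at chr3:96557957-96561883 (plus). The antisense gene Gm15441 overlaps Txnip exons, and Gm12868 overlaps those of Slc2a1. Gm15441 had 14.0 to 93.0 expected counts per library against 1897 to 3189 for Txnip. No strand setting is stated for these libraries in the sources used here, which leaves reads from the shared exons uncertain.

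Slc2a3 was the most abundant of the 7, at 51.6 ± 10.3 TPM (SD, n = 12), and its range of 33.7 to 70.3 TPM did not overlap that of any other member. Txnip followed at 21.3 ± 3.71 TPM (range 15.2 to 26.6) and Slc16a1 at 17.6 ± 3.34 TPM (range 11.5 to 23.2). These neighbours overlapped, and Txnip was above Slc16a1 in 8 of 12 libraries. Slc2a1 stood at 8.98 ± 1.65 TPM (range 7.20 to 12.2), overlapping the low end of Slc16a1 although it was below Slc16a1 in every library. Slc2a8 stood at 7.64 ± 2.52 TPM (range 3.70 to 12.7) and was below Slc2a1 in 11 of 12 libraries. The last pair were scarce: Slc2a4 at 0.24 TPM (range 0.02 to 0.53) and Slc16a3 at 0.061 TPM (range 0.01 to 0.13). All 7 passed the filter on low counts, Slc2a4 with 352 counts and Slc16a3 with 76 counts summed over the 12 libraries. Slc16a3 passed it only through ND libraries, since no HFD library held more than 8 counts and the minimum count was 10.

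**Figure D1:**
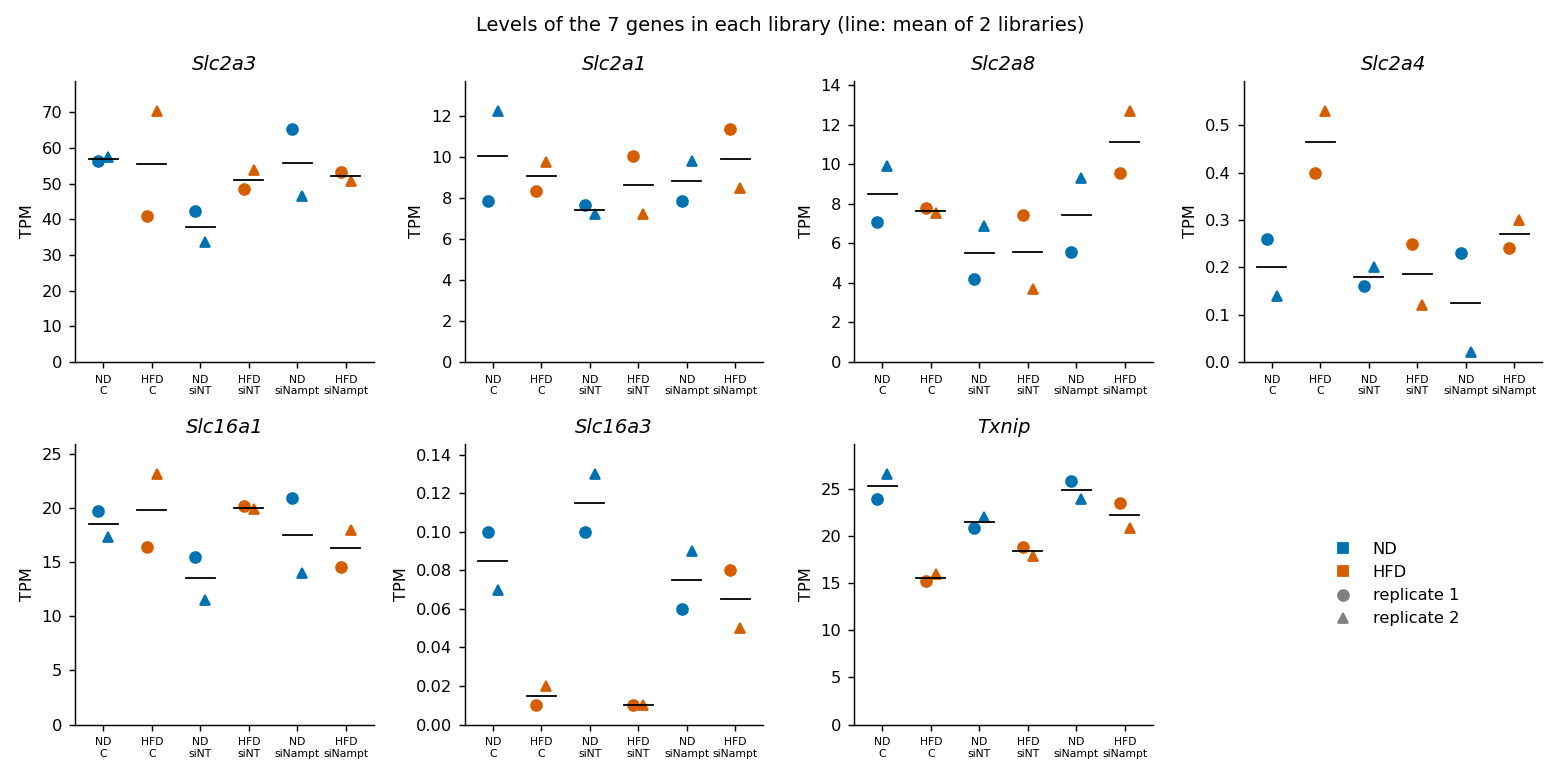
TPM of each of the 7 genes in each library (vertical axes start at 0 and differ between panels), by group, with ND in blue, HFD in orange, circles for replicate 1, triangles for replicate 2 and a line at the mean of 2 libraries. Slc2a3 reaches 70.3 TPM and Slc16a3 0.13 TPM; HFD Txnip sits below ND within each treatment.

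Within its family, Slc2a3 was the highest of 12 SLC2 genes in 12 of 12 libraries. It made up 65.9 to 81.5% of the summed SLC2 TPM (median 70.3%), lowest in ND siNT replicate 2. Slc2a1 made up 9.76 to 14.99% and Slc2a8 5.59 to 17.1%. The highest SLC2 gene outside the 7 was Slc2a12, a facilitative glucose carrier, at 1.89 TPM (range 1.07 to 3.78), and Slc2a7 followed at 0.18 TPM. The Slc2a3 level was 4.67 to 8.30 times that of Slc2a1 in the same library, with the lowest ratio in ND siNT replicate 2 and the highest in ND siNampt replicate 1.

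Slc16a1 held the same place among 14 SLC16 genes, highest in 12 of 12 libraries with 50.3 to 75.3% of the summed TPM (median 62.8%). The next were Slc16a13 at 3.80 TPM, Slc16a5 at 2.67 and Slc16a6 at 2.01. Slc16a3 made up at most 0.638% of the family sum. Bsg, the chaperone that brings MCT1 and MCT4 to the membrane, stood at 756 TPM (range 629 to 933), far above the carriers themselves. Emb, a related chaperone, stood at 8.97 TPM (range 3.38 to 18.9).

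**Figure D2:**
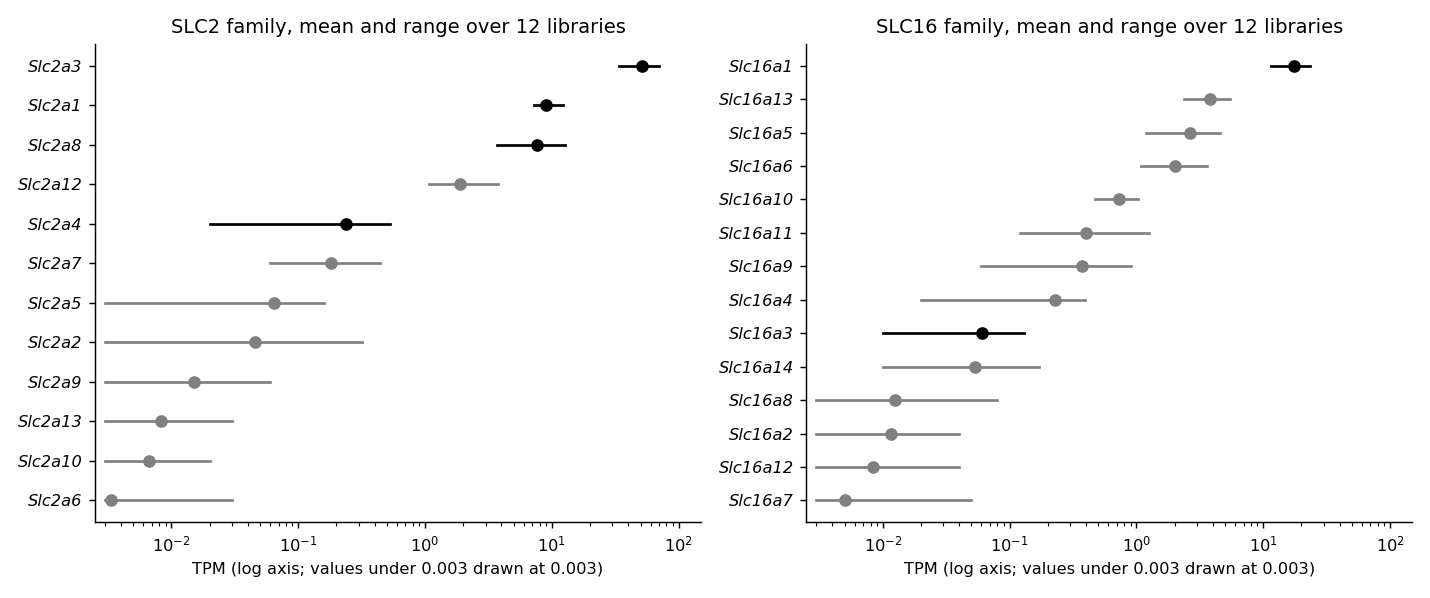
Mean (point) and range (line) of TPM over 12 libraries for every SLC2 and SLC16 gene in the files, on a log axis, with the members in black and other genes in grey. Slc2a3 at 51.6 TPM and Slc16a1 at 17.6 TPM lead their families, and Slc2a4 and Slc16a3 lie under 1 TPM.

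By edgeR's quasi-likelihood test with Benjamini-Hochberg adjustment over 14743 genes, 0 of 7 members passed a threshold of 0.05 in any of 10 comparisons, where 0% of all genes passed. DESeq2 also called 0 of 7 members in each comparison. It gave Slc16a3 no adjusted p in siNampt against siNT in ND, so that member could not be called there. It called 0.00678% of all genes in siNampt against siNT over both diets, 0.0475% in HFD against ND in C, and 0.0136% in siNampt against C, siNT against C, siNampt against siNT in HFD and HFD against ND over all treatments. It called 0% in the other 4 comparisons. By edgeR the member nearest to the threshold was Slc2a8 in siNampt against siNT over both diets (adjusted p = 0.408), and by DESeq2 it was Txnip in HFD against ND over all treatments (adjusted p = 0.208). Differences below are log2 fold changes of TMM-scaled counts with their standard errors (SE). In pools of whole embryos, fewer cells of a type and less RNA per cell cannot be told apart.

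Txnip differed most between the diets relative to its spread. In C it was at 23.9 and 26.6 TPM in ND and at 15.2 and 16.0 in HFD. With siNT it was at 20.8 and 22.0 TPM in ND and at 18.8 and 17.9 in HFD. With siNampt it was at 25.9 and 23.9 TPM in ND and at 23.6 and 20.9 in HFD. The HFD library was the lower one in 6 of 6 pairs of the same treatment and batch, and within every treatment both HFD libraries lay below both ND libraries in TPM. Across treatments the diets overlapped, since HFD siNampt replicate 1 lay above both ND siNT libraries.

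The Txnip mean was 23.9 ± 2.19 TPM in ND and 18.7 ± 3.11 TPM in HFD (SD, n = 6 each), a ratio of 0.785. The log2 difference of HFD against ND over all treatments was -0.40 (SE 0.10, edgeR adjusted p = 1.00). It was -0.36 within batch 1 and -0.44 within batch 2 as the mean of 3 pairs each. By treatment it was -0.65 (SE 0.16) in C, -0.33 (SE 0.16) with siNT and -0.21 (SE 0.16) with siNampt. The last was -0.09 without HFD siNampt replicate 2 and -0.36 without replicate 1, and the order of the 3 values was not tested. Txnip ranked at 7 of 14743 by its p over all treatments and at 3 in C, ranks that the choice of members makes a description. With siNampt, TMM-scaled counts of the 2 diets overlapped although their TPM did not.

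**Figure D3:**
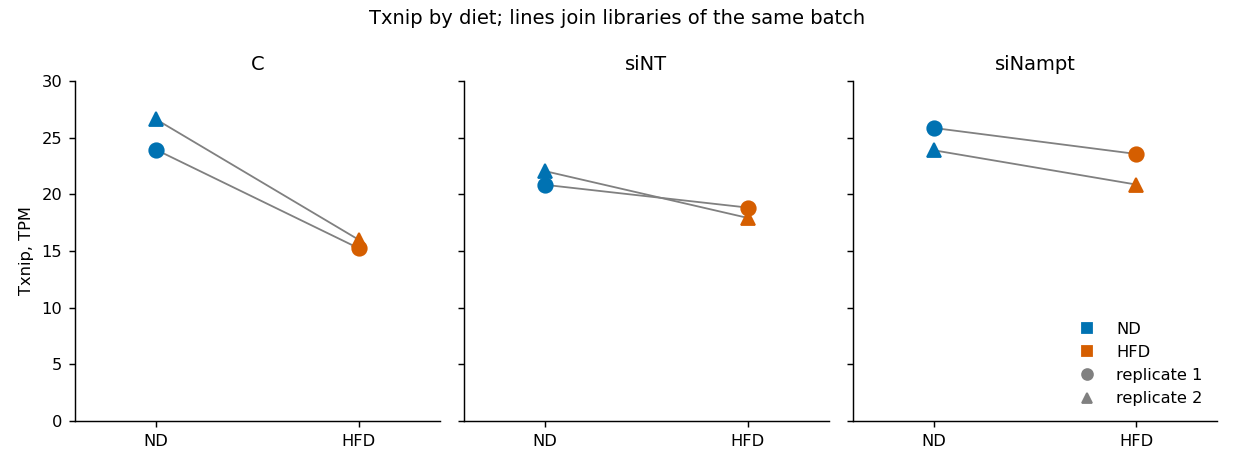
Txnip level in TPM (axis from 0) in ND and HFD libraries, 1 panel per treatment, with lines joining libraries of the same batch (circles batch 1, triangles batch 2). All 6 lines slope down from ND to HFD, from 23.9 and 26.6 to 15.2 and 16.0 TPM in C.

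Txnip also varied little between replicates. Its within-group SD of log2 CPM was 0.107, against a median of 0.194 over the 934 genes within 1.25-fold of its level. Of those genes 8.14% had a smaller SD. Slc2a3 and Slc2a8 were at the other end: 91.4% and 87.0% of genes of like level had a smaller within-group SD, which was 0.287 for Slc2a3 and 0.404 for Slc2a8. For Slc16a1 and Slc2a1 it was 0.261 and 0.263, larger than 79.4% and 61.8% of genes of like level.

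Txnip by treatment was 20.4 ± 5.69 TPM in C, 19.9 ± 1.88 with siNT and 23.5 ± 2.06 with siNampt (SD, n = 4 each). The log2 difference of siNampt from siNT over both diets was 0.11 (SE 0.12), and from C it was 0.21 (SE 0.12). These comparisons share the siNampt libraries. The groups overlapped in both, and the difference from siNT was 0.25 in batch 1 and -0.06 in batch 2. Without HFD siNampt replicate 1 it was 0.01.

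Slc2a8 differed between siNampt and siNT by more than its SE. In C it was at 7.10 and 9.92 TPM in ND and at 7.79 and 7.52 in HFD. With siNT it was at 4.20 and 6.87 TPM in ND and at 7.43 and 3.70 in HFD. With siNampt it was at 5.55 and 9.31 TPM in ND and at 9.57 and 12.7 in HFD. Each siNampt library lay above the siNT library of its diet and batch (4 of 4 pairs, log2 0.22 to 1.49), and each siNT library lay below its C library (4 of 4 pairs). The 2 lowest libraries of all were siNT, and siNT and siNampt overlapped across diets.

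The Slc2a8 mean was 8.08 ± 1.26 TPM in C, 5.55 ± 1.87 with siNT and 9.28 ± 2.92 with siNampt (SD, n = 4 each). The log2 difference was 0.59 (SE 0.24, edgeR adjusted p = 0.408) for siNampt against siNT, -0.44 (SE 0.24) for siNT against C and 0.15 (SE 0.24) for siNampt against C. The first and second of these share the siNT libraries. In HFD siNampt against siNT gave 0.90 (SE 0.34, edgeR adjusted p = 0.923), with no overlap of the groups. In ND it gave 0.25 (SE 0.34), and -0.16 without ND siNampt replicate 2. The difference between the diets' responses was 0.66 (SE 0.48, edgeR adjusted p = 1.00), and ran from 0.25 without ND siNT replicate 2 to 1.11 without HFD siNT replicate 1. The difference of siNampt from C was 0.01 without HFD siNampt replicate 2, and that of siNT from C was -0.28 without HFD siNT replicate 2. The value over both diets ran from 0.41 without HFD siNT replicate 2 to 0.78 without ND siNampt replicate 1. The value in HFD ran from 0.54 without HFD siNT replicate 2 to 1.37 without HFD siNT replicate 1.

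Slc2a8 was the 1 member with an unadjusted p under 0.05 in siNampt against siNT over both diets, where 11.2% of all genes were under it. It was also the 1 member in HFD, where 4.27% of genes were. In siNampt against C (3.8% of genes), siNT against C (4.4%), siNampt against siNT in ND (8.34%) and the difference between the diets' responses (3.06%), 0 of 7 members were under it. The summed TPM of the 8 trophectoderm markers was 3437 to 5278 with siNampt, 2784 to 3610 with siNT and 3034 to 3846 in C, ranges that overlap. Most of that sum was the keratin Krt18, at 2295 to 3786 TPM with siNampt and 1865 to 2428 with siNT. Against the siNT library of the same diet and batch, Gata3, Krt7 and Tfap2c were higher with siNampt in every pair. Krt8, Krt18, Cdx2 and Eomes were higher in 3 of 4 pairs, and Elf5 was lower in 3 of 4. The 4 Y-linked genes summed to 34.8 to 174 TPM with siNampt and 83.4 to 184 with siNT. Their part in the result was not tested.

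Slc2a3, the SLC2 gene of highest TPM, was at 56.3 and 57.5 TPM in ND C and at 40.8 and 70.3 in HFD C. It was at 42.2 and 33.7 TPM in ND siNT and at 48.3 and 53.9 in HFD siNT. It was at 65.2 and 46.6 TPM in ND siNampt and at 53.3 and 50.8 in HFD siNampt. ND siNT held the lowest library of all and HFD C the highest, and its 2 HFD C libraries differed more than any group means did. The log2 difference was 0.14 (SE 0.17) for siNampt against siNT, -0.22 (SE 0.17) for siNT against C and 0.06 (SE 0.14) for HFD against ND. The first was 0.01 without ND siNampt replicate 1, and the second ran from -0.36 without HFD C replicate 1 to -0.10 without HFD C replicate 2. The diet difference was -0.24 in batch 1 and 0.33 in batch 2, and -0.03 over all treatments without HFD C replicate 2. In ND siNampt against siNT gave 0.38 (SE 0.23), and 0.12 without ND siNampt replicate 1. In HFD it gave -0.09 (SE 0.23), and the diets' responses differed by -0.47 (SE 0.33, edgeR adjusted p = 1.00).

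Slc2a1, the carrier that Txnip is known to remove from the surface, differed by less than 1 SE in each of the 10 comparisons. Its libraries were at 7.86 and 12.2 TPM in ND C, at 7.64 and 7.21 in ND siNT and at 7.85 and 9.80 in ND siNampt. They were at 8.34 and 9.77 TPM in HFD C, at 10.1 and 7.20 in HFD siNT and at 11.4 and 8.47 in HFD siNampt. ND C replicate 2 was the highest library and HFD siNT replicate 2 the lowest, and the diets and the treatments overlapped. HFD against ND gave 0.04 (SE 0.14, 95% interval -0.25 to 0.33), and siNampt against siNT gave 0.09 (SE 0.17, 95% interval -0.26 to 0.45).

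Slc16a1, the SLC16 gene of highest TPM, was at 19.7 and 17.3 TPM in ND C. It was at 15.5 and 11.5 TPM in ND siNT and at 20.9 and 14.0 in ND siNampt. It was at 16.4 and 23.2 TPM in HFD C, at 20.2 and 19.9 in HFD siNT and at 14.6 and 18.0 in HFD siNampt. In HFD both siNT libraries lay above both siNampt libraries, while in ND the groups overlapped. The log2 difference of siNampt from siNT was -0.42 (SE 0.23) in HFD. In ND it was 0.20 (SE 0.23), and -0.12 without ND siNampt replicate 1. The difference between the diets' responses to siNampt was -0.61 (SE 0.32, edgeR adjusted p = 1.00), and -0.29 without ND siNampt replicate 1. Over all treatments HFD against ND gave 0.14 (SE 0.14), and within batches -0.18 and 0.49, so the batches differed in sign.

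Slc16a3 and Slc2a4 were known from few reads. Slc16a3 had 11 and 7 expected counts in ND C, 10 and 14 in ND siNT and 6 and 10 in ND siNampt. It had 1 and 2 counts in HFD C, 1 and 1 in HFD siNT and 8 and 5 in HFD siNampt. The HFD libraries of C and siNT were the low ones, and of the HFD siNampt libraries replicate 1 lay within the ND range and replicate 2 just under it. The summed counts were 58 in ND and 18 in HFD, a depth-scaled ratio of 3.25 (exact 95% interval 1.89 to 5.85, counting error only). The ratio of ND to HFD was 5.93 (1.73 to 31.4) in C from 18 and 3 counts, 13.3 (3.29 to 116) with siNT from 24 and 2, and 1.16 (0.525 to 2.63) with siNampt from 16 and 13. PCR copies are not independent molecules, so these intervals may be too narrow. By edgeR HFD against ND gave -1.93 (SE 0.76, adjusted p = 1.00). Slc16a3 entered this fit only because its ND libraries passed the count filter. A value below 0 is therefore partly set by the filter and supports no claim on diet.

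Slc2a4 had 34 and 17 expected counts in ND C, 19 and 25 in ND siNT and 29 and 3 in ND siNampt. It had 50 and 67 counts in HFD C, 30 and 15 in HFD siNT and 29 and 34 in HFD siNampt. HFD C held both highest libraries, and ND siNampt replicate 2 was the lowest. The summed counts were 127 in ND and 225 in HFD, a depth-scaled ratio of ND to HFD of 0.569 (0.454 to 0.71, counting error only). In C that ratio was 0.431 (0.304 to 0.603), with siNT 1.08 (0.696 to 1.67) and with siNampt 0.480 (0.303 to 0.746). With siNampt edgeR gave 1.02 (SE 0.88) for HFD against ND, which was 0.14 without ND siNampt replicate 2, the library with 3 counts, and 3.46 without replicate 1. By edgeR HFD against ND gave 0.71 (SE 0.49) over all treatments, and 0.45 without ND siNampt replicate 2. In ND siNampt against siNT gave -0.68 (SE 0.88), with 0.20 when ND siNampt replicate 2 was left out and -3.12 when replicate 1 was.

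**Figure D4:**
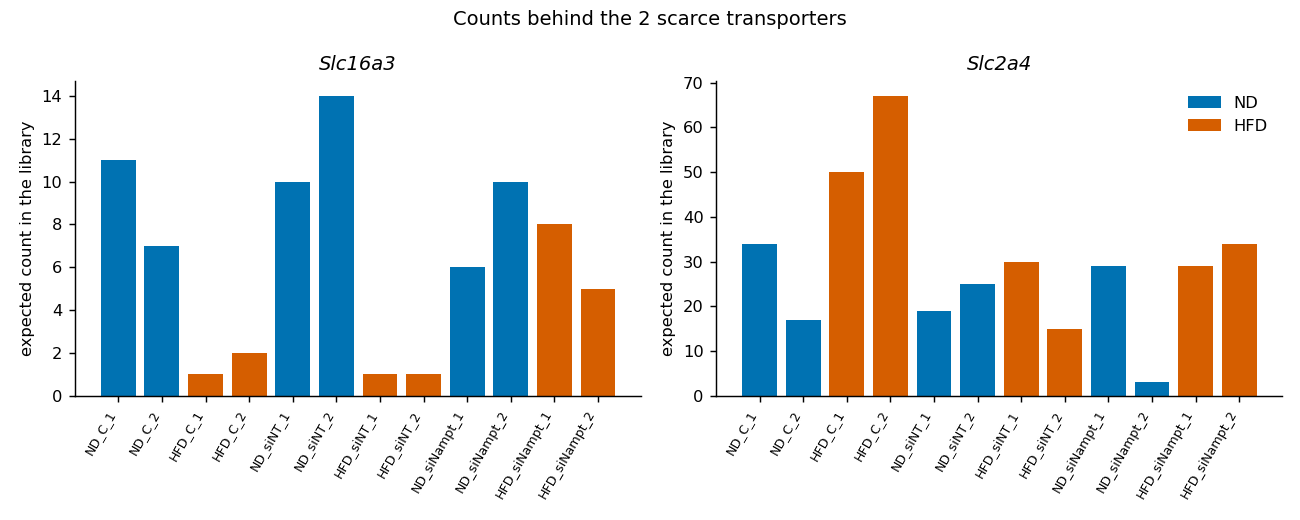
Expected counts of Slc16a3 and Slc2a4 in each library (bars from 0; ND blue, HFD orange). Slc16a3 has 1 or 2 counts in the 4 HFD libraries of C and siNT and 5 to 14 in the other 8, and Slc2a4 peaks at 50 and 67 counts in HFD C.

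For the diet comparisons the members with an unadjusted p under 0.05 were Slc16a3 and Txnip over all treatments (2 of 7, against 3.22% of all genes), Txnip in C (1 of 7, against 2.81%) and Slc16a3 with siNT (1 of 7, against 2.79%). With siNampt 0 of 7 were under it, against 3.68% of all genes. The rule used these same values, so nothing is read from the counts. Slc16a3 was also tested only because its ND libraries passed the count filter. The median over the 7 members was 0.06 for HFD against ND over all treatments, beside 0.00 over all genes tested, with 5 members above 0 and 2 below. For siNampt against siNT over both diets it was 0.11 beside 0.03 over all genes, with 5 above 0 and 2 below.

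**Figure D5:**
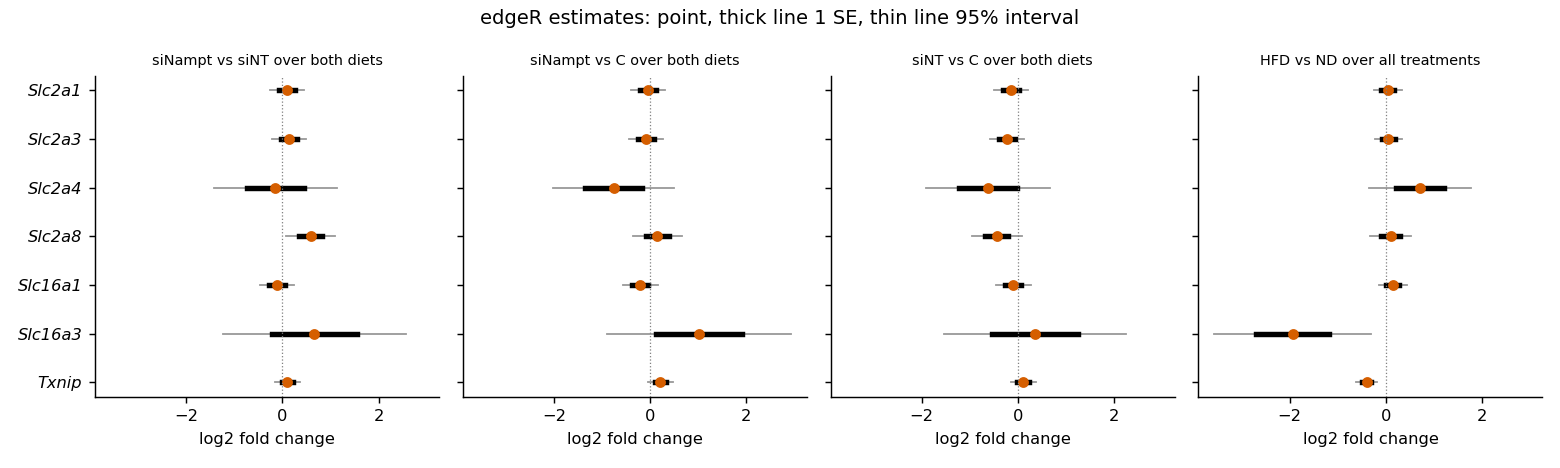
log2 fold change of each of the 7 genes in 4 comparisons (points), with 1 SE (thick line) and the 95% interval (thin line) from edgeR. The intervals of Txnip and Slc16a3 lie below 0 in HFD against ND and that of Slc2a8 above 0 in siNampt against siNT. None of these passed adjustment over all genes. The intervals of Slc2a4 and Slc16a3 are the widest. Slc16a3 passed the count filter only through ND libraries, so its place in the diet panel supports no claim.

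Counting libraries of a group pair that do not overlap in scaled CPM gave few members in each direction. In C the HFD libraries lay above both ND libraries for Slc2a4 (1 of 7, against 14.1% of all genes) and below them for Slc16a3 and Txnip (2 of 7, against 15.5%). With siNT they lay above for Slc16a1 (1 of 7, against 17.3%) and below for Slc16a3 and Txnip (2 of 7, against 16.2%). With siNampt they lay above for Slc2a4 and Slc2a8 (2 of 7, against 15.2%) and below for 0 of 7 (13% of all genes). The siNampt libraries lay above siNT in HFD for Slc2a8 and Slc16a3 (2 of 7, against 17.9%) and below for Slc16a1 (1 of 7, against 15.6%). In ND they lay above for 0 of 7 (21.5% of all genes) and below for Slc16a3 (1 of 7, against 19.8%). With 2 libraries a group, separation is common among all genes. Slc16a3 passed the count filter only through ND libraries, so its separation by diet supports no claim. Over both diets or all treatments 0 of 7 members separated. The shares of all genes that did, higher and lower, were 3.38% and 2.71% in siNampt against siNT, 1.45% and 0.861% in siNampt against C, 1.51% and 1.76% in siNT against C, and 0.0475% each way in HFD against ND.

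A wider list of 87 genes around these carriers was read beside them, of which 73 were tested and 0 passed edgeR's adjusted threshold in any of the 10 comparisons. Of the 12 arrestin and Mondo genes, 0 passed. Mlx, the partner of the Mondo factors, stood at 35.2 TPM, and Arrdc4, an arrestin regulated like Txnip, at 28.6 TPM. The Mondo factors themselves were low, Mlxip at 1.13 TPM (range 0.75 to 1.69) and Mlxipl at 0.078 TPM (range 0.01 to 0.20). HFD against ND gave 0.02 (SE 0.15) for Arrdc4 and 0.07 (SE 0.11) for Mlx, where Txnip gave -0.40. By treatment Arrdc4 gave -0.28 (SE 0.25) in C, -0.02 (SE 0.25) with siNT and 0.36 (SE 0.25) with siNampt. Mxd1, a repressor that pairs with Max, had the smallest p of that list for diet at 0.40 (SE 0.30), from only 0.15 to 0.42 TPM. For siNampt against siNT that was the arrestin Arrdc1, at 0.48 (SE 0.20, edgeR adjusted p = 0.423). Of the 12 Txnip partners 0 passed. Txn1, the thioredoxin that Txnip binds, stood at 776 TPM and the mitochondrial Txn2 at 280 TPM, with diet differences of -0.02 (SE 0.08) and 0.02 (SE 0.09). Txnrd1, which reduces thioredoxin, had the smallest p of that list for siNampt against siNT, at 0.41 (SE 0.14, edgeR adjusted p = 0.396). For HFD against ND that was Prkaa1, a catalytic subunit of AMPK, at -0.15 (SE 0.11).

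The steps after uptake were well expressed. Hk2, which phosphorylates glucose, stood at 49.4 TPM and the phosphatase G6pc3 at 14.0. Pdhb, a subunit of pyruvate dehydrogenase, stood at 384 TPM and Mpc1, of the mitochondrial pyruvate carrier, at 255 TPM. For siNampt against siNT, Mpc1 gave -0.33 (SE 0.14, edgeR adjusted p = 0.425) and Hk2 -0.16 (SE 0.15). Hk1, another hexokinase, at only 0.23 to 1.01 TPM, gave 0.54 (SE 0.36). For HFD against ND the smallest p of the 2 lists belonged to Slc37a4, the glucose 6-phosphate carrier, at 0.23 (SE 0.21), and to Mpc1 at -0.20 (SE 0.12). Of 8 tested glucose phosphorylation genes and 12 lactate and pyruvate genes, 0 passed in either direction. In ND the smallest p among the latter belonged to Ldhb, a lactate dehydrogenase subunit, at -1.10 (SE 0.42, edgeR adjusted p = 0.559). Its response in HFD minus that in ND was 1.60 (SE 0.58, edgeR adjusted p = 1.00).

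Among 9 tested genes of GLUT4 trafficking 0 passed. Snap23, a membrane fusion protein, stood at 52.7 TPM and the vesicle GTPase Rab10 at 27.5 TPM, beside 0.24 TPM for Slc2a4 itself. Aspscr1, the GLUT4 tether also called TUG, gave 0.55 (SE 0.15, edgeR adjusted p = 0.396) for siNampt against siNT. Sort1, the sorting receptor sortilin, was scarce at 0.06 to 0.38 TPM and gave 0.71 (SE 0.37) for HFD against ND. Among other carriers, Slc50a1 stood at 14.7 TPM and Slc5a4b at 2.83 TPM. Slc5a4b gave 0.75 (SE 0.47) for siNampt against siNT. The sodium-coupled glucose carrier Slc5a2, at only 0.18 to 1.17 TPM, gave -0.62 (SE 0.45) for HFD against ND. In the SLC16 list 0 of 10 tested genes passed, and Slc16a13 gave 0.44 (SE 0.17, edgeR adjusted p = 0.397) for siNampt against siNT. Slc16a6 gave -0.61 (SE 0.20) and Emb 0.76 (SE 0.26) for HFD against ND (edgeR adjusted p = 1.00 for both), and Bsg 0.00 (SE 0.08). In the SLC2 list 0 of 4 passed, and Slc2a12 gave -0.68 (SE 0.29, edgeR adjusted p = 1.00) for HFD against ND. For siNampt against siNT the smallest p there was that of Slc2a2, which was listed at 0 TPM in all 4 siNampt libraries and at 0.32 TPM at most elsewhere, so no fold is given.

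Genes of most similar pattern were taken as the 3 with the smallest mean absolute difference in centred log2 CPM over the 12 libraries. For Txnip they were Cryab (0.122), Nploc4 (0.125) and Tsc1 (0.140), among 5475 genes of like variability. For Slc2a3 they were Mtfp1 (0.0929), Trim27 (0.0987) and Dnal4 (0.0995). For Slc16a1 they were Mterf4 (0.0860), Setdb2 (0.101) and Gjb5 (0.106), and for Slc2a1 Kdm5c (0.0580), Slc37a3 (0.0949) and Hp1bp3 (0.0980). For Slc2a8 the nearest were 2010300C02Rik (0.133), Dgkz (0.160) and Atg2a (0.166). For the scarce Slc2a4 and Slc16a3 the nearest genes, Morc1 (0.446) and Hormad1 (0.604), were little nearer than a flat line (0.616 and 0.769). None of the 7 was among the 3 nearest genes of another member. Slc2a4 and Slc16a3 could not be listed, since similar genes needed at least 5 CPM. With only 3 genes kept for each member, this does not show whether members vary together.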

How the data were processed

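RNA was measured in 12 libraries from pools of 10 blastocysts, made with a SMART-Seq kit per the labels' protocols. The submitters' processing notes name STAR 2.7.10, RSEM 1.2.28 and mm10. The deposited tables hold, per the file headers, expected counts (6.43% not whole), TPM, and each gene's length and effective length. Expected counts were rounded, filtered (filterByExpr, minimum count 10, leaving 14743 of 24411 genes), scaled by TMM and put through the two-sided quasi-likelihood test of edgeR 4.0.16 (R 4.3.3; Benjamini-Hochberg, threshold 0.05), all 12 libraries in each fit. Comparisons over diets or treatments came from a model with diet and treatment as additive terms, and the others from 6 group means. SE is the absolute log2 fold change over the square root of F. The ratios of summed counts carry exact 95% intervals for counting error, scaled by effective library size.

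Members, lists and rules were chosen with earlier results of these data known. All 7 members are named, and of each wider list the 2 highest by TPM and the gene of smallest p in siNampt against siNT over both diets and in HFD against ND over all treatments. Ldhb has the smallest p of its list in ND, and Mlxip and Mlxipl are named for their levels. All 8 trophectoderm markers are named beside the Slc2a8 result, a choice made after their values were seen. Similar genes needed at least 5 CPM and an SD between 0.67 and 1.5 times that of the member. Promoters are from RefSeq and loci from GENCODE, matched by symbol for 5 and 7 members, with upstream letters outside the GENCODE gene for 4. The method was tested on simulated data before use. Alternatives were DESeq2 1.42.0, RLE, no filter, a filter of 5 CPM in 2 libraries, the replicate number as a block, limma 3.58.1 on log2 TPM plus 1 or 0.1, only the libraries compared, and leaving out each library. The batch tag of the labels equals the replicate number, so the numbers pair the libraries. Over 15 pairs of groups, replicate differences correlated across genes with r from -0.06 to 0.22.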

Additional observations from a re-analysis of the deposited data

Results flagged for a closer look

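Among 35 sets of 4 or 6 libraries, 1 set per member and diet or treatment, 0 held a library standing apart by Dixon's criterion. The siNampt values of Slc16a3 lay below siNT in ND and above it in HFD. From siNT to siNampt its counts went from 10 and 14 to 6 and 10 in ND, and from 1 and 1 to 8 and 5 in HFD. The log2 value in ND was -0.84 (SE 1.09), within its error, with a count ratio of 0.555 (0.275 to 1.09), and in HFD it was 2.52 (SE 1.30). The log2 difference between these responses was 3.36 (SE 1.69, edgeR adjusted p = 1.00), so the test of the difference did not pass. The 4 groups hold 24 and 16 counts in ND and 2 and 13 in HFD, and Slc16a3 passed the count filter only through ND libraries.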

How the results depend on the processing

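Under 20 alternatives in 10 comparisons, the count of members past the adjusted threshold was 0 in each of 200 counts, with the smallest adjusted p of a member at 0.138. With the replicate number as a block, which pairs the libraries by batch, 0 of 7 members passed in every comparison, so the block changed no call. Of 1376 member differences, 1296 stayed within 1 within-group SD of their gene and 80 moved further. Of these, 40 belong to Slc16a3, 14 to Txnip, 8 to Slc2a4 and 6 each to Slc2a8 and Slc16a1. Slc2a1 had 4 and Slc2a3 had 2. Txnip kept its sign in HFD against ND under all 20 alternatives, from -0.46 to -0.34. Over all genes, edgeR called 40 to 119 genes without a filter and 0 with it, and DESeq2 0 to 7. The stricter filter removed Slc2a4 and Slc16a3, so it gives no value for them, and DESeq2 gave Slc16a3 no adjusted p in siNampt against siNT in ND. On log2 TPM plus 0.1 the median of all genes shifted by 0.14 for siNampt against siNT (0.16 in ND, 0.13 in HFD), by -0.11 for siNT against C and by 0.10 for HFD against ND with siNT. For siNampt against siNT over both diets, Slc16a1 changed sign, from -0.11 to 0.03. Low counts limit Slc16a3 and Slc2a4, with 76 and 352 over all libraries. Slc2a4 also varied between pools, with 29 and 3 counts in ND siNampt.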
